A study of Mus musculus with 8 samples.

Results

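The 7 genes described here encode subunits of the GABA-A receptor: Gabra2, Gabra3, Gabra4, Gabra5, Gabrb1, Gabrb2 and Gabrd. They were found by matching the Ensembl identifiers of the count table to mouse GENCODE symbols and taking these named genes. The matching used no measured value, and they are 7 of the 22430 genes listed and 7 of the 19 GABA-A receptor subunit genes. Sequencing of polyadenylated RNA gave their mRNA levels in 8 male C57Bl/6JRj mice that differed in age: 4 were young adults (6m, 6 months old) and 4 were aged (24m, 24 months old). No treatment was named, and each animal gave 1 library. The tissue is given as whole brain and as brain hemisphere, homogenised whole, so each value is an average over all regions and cell types of that tissue.

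GABA-A receptors are chloride channels opened by GABA, the main inhibitory transmitter of the adult brain, and each is assembled from several subunits around a central pore. GABA binds between an α and a β subunit, and the α subunit sets much of the position and the kinetics of the receptor. Receptors with α2 or α3 and a γ subunit sit mostly at synapses, whereas receptors with α5, or with α4 and δ, sit largely outside synapses and carry a steady, tonic inhibition. The β2 subunit is among the most widespread in the adult brain, and the δ subunit takes the place of γ in extrasynaptic receptors of the forebrain and of cerebellar granule cells.

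Total counts ranged from 63460940 to 103462414 per library, and the deepest library was 24m replicate 1. Factors of the trimmed mean of M values (TMM), which correct for the makeup of a library, ran from 0.887 to 0.957 at 6m and from 1.00 to 1.13 at 24m. Levels are given as CPM, counts per 1e+06 of the TMM-scaled library, and fold changes come from the quasi-likelihood test of edgeR fitted to 16730 genes, with p-values adjusted over all of them. Replicate 1 of 24m stood apart from the other 24m libraries, and not on these genes alone. Over all tested genes its chi-square per degree of freedom was 181, 215 and 424 against replicates 2, 3 and 4. Among those replicates it was 13 to 61.4. On the 7 genes, 24m replicate 1 was the lowest of the 4 for 6 of them and the highest for Gabrd, so results for the 7 genes are given with and without it, and counts over gene lists without it where they change. Across the 16677 tested genes with an annotated length, the log2 fold change was related to exonic length (Spearman rho = 0.42, a description across genes, which are not independent replicates), and fold changes of the 7 genes after removal of this trend are given beside the results. Since these are bulk samples, fewer cells of a type and less RNA per cell cannot be told apart.

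Gabra3, Gabra4 and Gabrb2 rose with age and Gabrb1 fell. A gene was called at an adjusted p of at most 0.05 with a log2 fold change of at least 0.58 in either direction, the thresholds of the study. By this rule, 3 of the 7 subunits were called higher, where 25.3% of all tested genes were called higher, and 1 was called lower, against 18.3% of all tested genes. In either direction, 4 of 7 were called against 43.6% of all genes, a count too near this background, among so few genes, to set these subunits apart. The same 4 genes were without overlap between the ages, which held for 55.2% of tested genes. Gabra2, Gabra5 and Gabrd were not called and their ages overlapped. The change of Gabrb2 was the largest of the 7 and ranked 23 of 16730 tested genes when ordered from the highest fold change down.

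**Figure D1:**
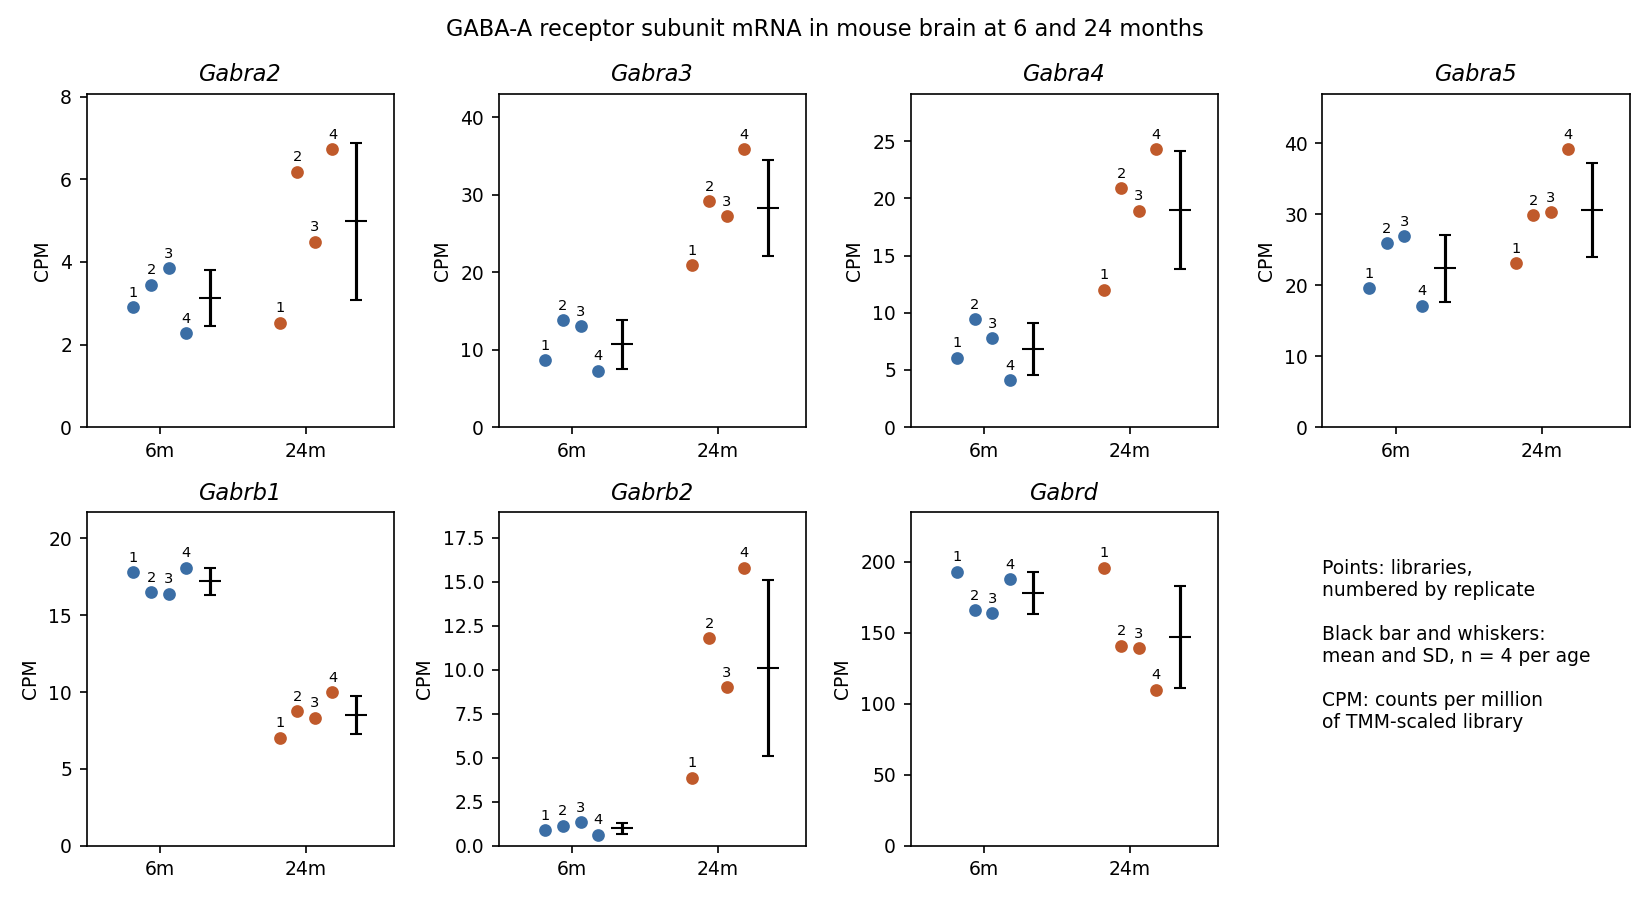
Level of each subunit mRNA in CPM (vertical axis, from 0) in the 8 libraries, with replicate numbers beside the points and the mean and SD of each age in black. The 24m libraries lie above all 6m libraries for Gabra3, Gabra4 and Gabrb2 and below them for Gabrb1, while the ages overlap for Gabra2, Gabra5 and Gabrd.

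Gabra2 encodes α2, a synaptic subunit found also at the axon initial segment of principal neurons. The gene (ENSMUSG00000000560) lies on the minus strand of chromosome 5 from 71114573 to 71253662 (GRCm39). In order of replicate number, the young libraries held 2.91, 3.45, 3.85 and 2.28 CPM and the aged libraries 2.53, 6.18, 4.49 and 6.73 CPM. Replicates 2, 3 and 4 of 24m were above every 6m library, and 24m replicate 1 fell among the young animals. The means were 3.12 ± 0.679 and 4.98 ± 1.89 CPM (SD, n = 4 each), a log2 fold change of 0.67 ± 0.29 (SE) that was past the fold threshold and missed the adjusted threshold (edgeR adjusted p = 0.0666). Gabra2 was called without 24m replicate 1, where the difference was 0.90 ± 0.19 on the log2 scale (edgeR adjusted p = 0.00166), and also with all 8 libraries by DESeq2 and with library totals in place of TMM factors. With the length trend removed it was 0.32 ± 0.24 (edgeR adjusted p = 0.275), and over all alternatives the adjusted p ranged from 0.00166 to 0.285. Counts for Gabra2 were 151 to 244 at 6m and 262 to 587 at 24m.

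Gabra3 encodes α3, a synaptic subunit prominent in the thalamic reticular nucleus and in monoaminergic neurons. Its gene (ENSMUSG00000031343) is X-linked, on the minus strand of chromosome X from 71476275 to 71700723. The 6m libraries held 8.67, 13.8, 13.0 and 7.31 CPM in order of replicate number, and the 24m libraries 20.9, 29.2, 27.2 and 35.9 CPM. Even the lowest aged library was above the highest young one. Means were 10.7 ± 3.19 and 28.3 ± 6.18 CPM (SD, n = 4 each), so that Gabra3 rose 2.65-fold (log2 fold change 1.40 ± 0.23 SE, edgeR adjusted p = 0.00069). The log2 fold change was 1.53 without 24m replicate 1 and 1.21 with the length trend removed, and in each of the 18 alternatives Gabra3 stayed called, with values between 1.16 and 1.62.

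Gabra4 encodes α4, which assembles with δ in extrasynaptic receptors of thalamus, dentate gyrus and striatum. The gene (ENSMUSG00000029211) occupies 71721738 to 71815722 on the minus strand of chromosome 5. In order of replicate number, Gabra4 was at 6.07, 9.43, 7.75 and 4.10 CPM in 6m and at 12, 20.9, 18.9 and 24.3 CPM in 24m. The ages did not overlap, although 24m replicate 1 was nearer to the highest young library than to the other aged ones. Gabra4 rose 2.78-fold, from 6.84 ± 2.28 to 19.0 ± 5.16 CPM (SD, n = 4 each, log2 fold change 1.48 ± 0.27 SE, edgeR adjusted p = 0.00136). Its log2 fold change was 1.65 without 24m replicate 1 and 1.08 with the length trend removed, and it was called in all 18 alternatives.

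Gabra5 encodes α5, the extrasynaptic subunit enriched in hippocampal pyramidal neurons. The gene (ENSMUSG00000055078) lies on the minus strand of chromosome 7 from 57055164 to 57240831. Young libraries held 19.6, 25.9, 26.9 and 17.1 CPM and aged libraries 23.1, 29.9, 30.3 and 39.2 CPM, in order of replicate number. As for Gabra2, 24m replicates 2 to 4 were above all 6m libraries and 24m replicate 1 was not. The log2 fold change of 0.45 ± 0.19 (SE) between means of 22.4 ± 4.76 and 30.6 ± 6.60 CPM (SD, n = 4 each) missed both thresholds (edgeR adjusted p = 0.0565). Without 24m replicate 1 the value passed the adjusted threshold and lay just under the fold threshold before rounding (0.58 ± 0.16, edgeR adjusted p = 0.00874), and with the length trend removed it was 0.11 ± 0.14 (edgeR adjusted p = 0.514). Some exonic sequence of Gabra5 is also exonic in genes of the opposite strand, and how strand was used in counting is not given in the sources used here, so reads of such genes could be counted there or set aside.

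The makeup of the α2, α3, α4 and α5 pool was described as the share of each gene in their summed counts per kilobase of exonic length, a measure within 1 library that needs no scaling between libraries. Gabra5 was the most abundant of the 4 at 6m and Gabra3 at 24m. By replicate number, Gabra5 had shares of 49.8%, 46.4%, 49.2% and 52.4% at 6m and of 36.3%, 32.1%, 34.7% and 34.2% at 24m. The share of Gabra3 was 28.9%, 32.3%, 31.1% and 29.3% at 6m and 42.8%, 41.0%, 40.7% and 40.9% at 24m. Neither gene had an aged library within the young range. Gabra4 went from 13.2 ± 1.65% to 18.9 ± 1.39% and Gabra2 from 6.95 ± 0.524% to 5.44 ± 1.15% (SD, n = 4 each), the latter with overlap. Because the 4 shares sum to 100 in each library they are not independent, and no test was made of them. With the canonical transcript in place of the union of exons as the length, Gabra5 stayed the most abundant at both ages (57.1 ± 2.64% and 41.1 ± 1.82%) and Gabra3 went from 24.8 ± 1.41% to 35.1 ± 0.745%, so which gene leads at 24m depends on the length used while the direction of each shift does not.

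**Figure D2:**
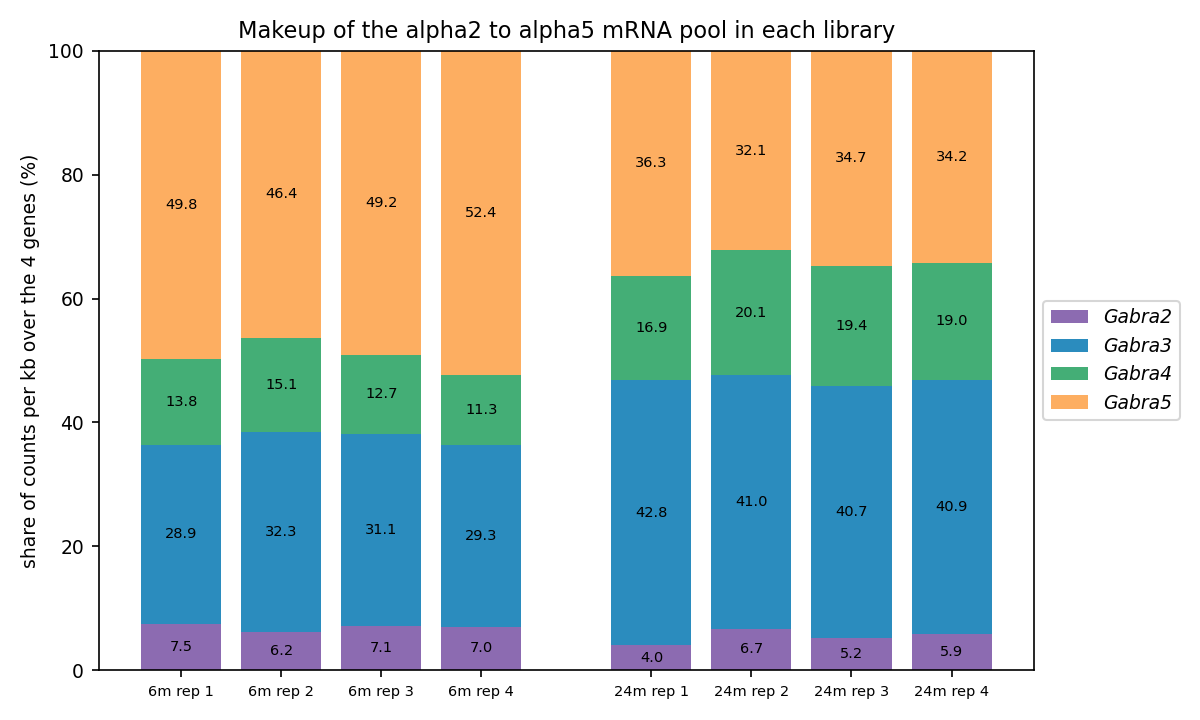
Share of each α gene (percent, stacked to 100) in the summed counts per kilobase of exonic length over Gabra2, Gabra3, Gabra4 and Gabra5, 1 bar per library. The band of Gabra5 is narrower and the band of Gabra3 wider in every 24m bar than in every 6m bar.

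The β subunits moved in opposite directions. Gabrb1 encodes β1, and its gene (ENSMUSG00000029212) spans 71815456 to 72319431 on the plus strand of chromosome 5, beginning within the 5′ end of Gabra4. Young libraries held 17.8, 16.5, 16.4 and 18.1 CPM and aged libraries 7.02, 8.77, 8.34 and 10.0 CPM. The highest aged library stayed well under the lowest young one, and the spread among young animals was small (a coefficient of variation of 5.04%). Gabrb1 fell 2.02-fold, from 17.2 ± 0.866 to 8.53 ± 1.23 CPM (SD, n = 4 each, log2 fold change -1.01 ± 0.12 SE, edgeR adjusted p = 0.000139). Among all tested genes, 5.78% had a lower fold change. Here 24m replicate 1 was not nearer to the young animals but the lowest of the 8, and without it the log2 fold change was -0.92. With an exonic length of 16877 bases, most of it a 3′ untranslated region (12231 bases in the canonical transcript), Gabrb1 is the longest of the 7 transcripts, and the length-corrected value was -1.59 ± 0.11 (edgeR adjusted p = 1.21e-05).

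Gabrb2 encodes β2 and lies on the plus strand of chromosome 11 from 42310493 to 42523417 (ENSMUSG00000007653). By replicate number, it was at 0.884, 1.13, 1.33 and 0.620 CPM in the young animals and at 3.87, 11.8, 9.02 and 15.8 CPM in the aged animals. The corresponding counts were 58, 80, 80 and 41 at 6m and 401, 943, 751 and 1375 at 24m. Every aged library was above every young one, and the aged libraries varied more than for any other of the 7 genes, with a coefficient of variation of 49.4%. Means were 0.991 ± 0.306 and 10.1 ± 4.99 CPM (SD, n = 4 each), so Gabrb2 rose 10.2-fold (log2 fold change 3.35 ± 0.42 SE, edgeR adjusted p = 0.000181). The log2 fold change was 3.63 without 24m replicate 1 and 2.89 with the length trend removed, and lay between 2.82 and 3.63 over the alternatives, in each of which Gabrb2 was called.

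Promoter windows of RefSeq (GRCm38.p6), from 250 bases before to 50 bases after an annotated start, were at hand for 6 of the 7 genes, with 10 windows in all, and Gabrd had none. They are shown for Gabrb2, the gene with the largest change, and for Gabra4 and Gabrb1, which are transcribed away from each other and moved in opposite directions. Capitals mark matches on either strand to TATAAA (the TATA box), GGGCGG (the GC box) or GCATGCGC (the core bound by NRF1). TGACGTCA, the cyclic AMP response element, was also searched and is not in these windows. All windows are written 5′ to 3′ in the direction of transcription.
Gabrb2, chr11:42420190-42420489, plus strand: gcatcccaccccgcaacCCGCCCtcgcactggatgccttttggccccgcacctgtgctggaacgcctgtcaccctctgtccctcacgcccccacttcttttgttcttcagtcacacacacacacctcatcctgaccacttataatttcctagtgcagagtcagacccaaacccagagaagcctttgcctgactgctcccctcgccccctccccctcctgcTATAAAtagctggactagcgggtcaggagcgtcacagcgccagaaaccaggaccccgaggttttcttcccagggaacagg
Gabra4, chr5:71658259-71658558, minus strand: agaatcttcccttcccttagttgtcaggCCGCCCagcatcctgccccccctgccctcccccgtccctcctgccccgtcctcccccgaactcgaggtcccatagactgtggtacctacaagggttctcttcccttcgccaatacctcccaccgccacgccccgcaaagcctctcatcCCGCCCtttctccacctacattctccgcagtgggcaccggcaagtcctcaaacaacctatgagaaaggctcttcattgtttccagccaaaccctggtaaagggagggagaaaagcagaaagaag
Gabrb1, chr5:71699682-71699981, plus strand: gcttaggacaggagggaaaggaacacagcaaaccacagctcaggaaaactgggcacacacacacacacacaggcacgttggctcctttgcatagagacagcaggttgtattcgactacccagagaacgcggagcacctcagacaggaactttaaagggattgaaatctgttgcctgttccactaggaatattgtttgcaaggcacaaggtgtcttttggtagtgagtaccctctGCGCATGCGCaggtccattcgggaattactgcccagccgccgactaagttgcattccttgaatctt

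The printed Gabrb2 window held TATAAA 30 bases before the start and a GC box 233 bases before it, whereas 13.6% of all 32851 windows held TATAAA and 35.7% a GC box on either strand. Gabrb2 had 3 windows, and the other 2 held none of these motifs. The Gabra4 window held GC boxes 222 and 74 bases before the start. In the Gabrb1 window, GCATGCGC and its reverse complement overlapped in 1 palindromic run beginning 16 bases before the start, and 2.71% of all windows held this core. The other Gabrb1 window lay at chr5:71657671-71657970 and held none of these motifs and 25 CpG dinucleotides, against 9 in the printed one and a median of 7 over all windows. The start of that window lies 387 bases past the Gabra4 start in the direction in which Gabra4 is transcribed, so the 2 genes overlap there, and the start of the printed window is 41.6 kb from the Gabra4 start. The counts are per gene and do not separate the starts. Gabra2 had GC boxes 205 bases before and 6 bases after its start, Gabra3 had 1 TATAAA match in the stretch shared by its 2 overlapping windows, 123 bases before 1 start and 235 before the other, and Gabra5 had no match. The TATAAA match of Gabra3 was on the strand opposite to the gene, whereas that of Gabrb2 was in the direction of transcription. A match describes letters in a window and is not evidence of binding.

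Gabrd encodes δ, the subunit of extrasynaptic receptors that respond to low GABA concentrations and to neurosteroids. The gene (ENSMUSG00000029054) is on the minus strand of chromosome 4 from 155469407 to 155482872, apart from the other subunit clusters. By replicate number, Gabrd was at 193, 166, 164 and 188 CPM in young brains and at 196, 141, 139 and 110 CPM in aged brains. Replicates 2 to 4 of 24m were below all young libraries, while 24m replicate 1 was the highest of the 8. The difference between 178 ± 14.8 and 147 ± 35.7 CPM (SD, n = 4 each) missed both thresholds (log2 fold change -0.28 ± 0.16 SE, edgeR adjusted p = 0.143). Without 24m replicate 1, the aged mean was 130 ± 17.2 CPM and the log2 fold change -0.44 ± 0.10 (edgeR adjusted p = 0.00206), still under the fold threshold, and without 24m replicate 4, the lowest, the log2 value was -0.16 (edgeR adjusted p = 0.31). With the length trend removed it was -0.41 ± 0.16 (edgeR adjusted p = 0.0498), also under the fold threshold. With library totals in place of TMM factors it was -0.07 ± 0.12 (edgeR adjusted p = 0.635).

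**Figure D3:**
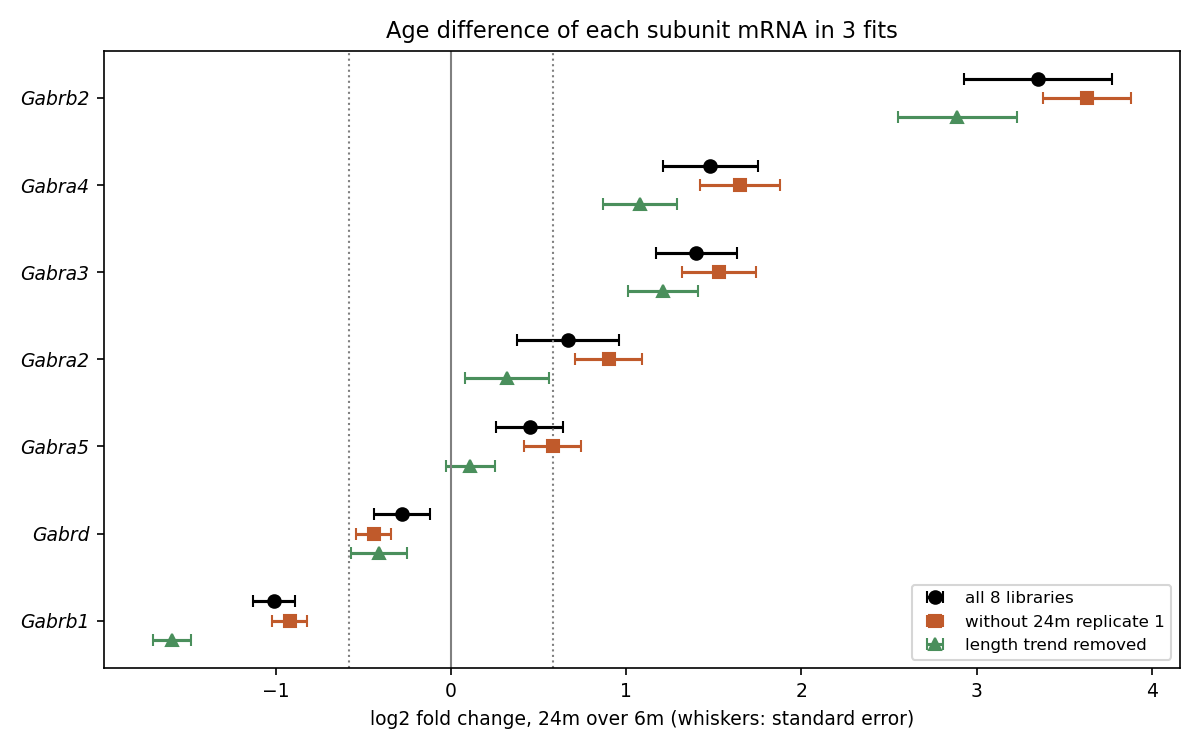
Log2 fold change of each subunit (horizontal axis, whiskers are standard errors) with all 8 libraries, without 24m replicate 1 and with the length trend removed, with dotted lines at the fold threshold of 0.58 in either direction. Gabrb2, Gabra4, Gabra3 and Gabrb1 lie outside the dotted lines in the 3 fits, while Gabra2 lies on either side of the line depending on the fit.

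Ratios of 2 subunits within a library were compared between ages by an exact two-sided permutation test over the 70 assignments of the libraries, whose smallest p is 0.0286, with Benjamini-Hochberg adjustment over the 4 ratios examined. These are ratios of counts, not of molecules, since the transcripts differ in length. Counts of Gabrb2 were 0.0344 to 0.0808 of those of Gabrb1 in the young libraries and 0.551, 1.34, 1.08 and 1.58 of them in the aged libraries, by replicate number. The geometric mean went from 0.0554 to 1.06, a log2 difference of 4.26 (exact permutation p = 0.0286, adjusted 0.0381, n = 4 per age). Since all aged libraries were above all young ones for Gabrb2 and below them for Gabrb1, this ratio could not overlap. Its p had to be the smallest possible and adds no evidence to the results of the 2 genes. Without 24m replicate 1, or without any single 6m library, the adjusted exact permutation p was 0.0571. In 3 of the 4 aged libraries Gabrb2 had more counts than Gabrb1, and in none of the young ones.

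Between α4 and δ, the partners of extrasynaptic receptors in the forebrain, the counts of Gabra4 were 0.0314, 0.0567, 0.0471 and 0.0218 of those of Gabrd at 6m and 0.0614, 0.148, 0.136 and 0.220 of them at 24m. The ages did not overlap, but 24m replicate 1 was close to the highest young library. The log2 difference was 1.80 (exact permutation p = 0.0286, adjusted 0.0381, n = 4 per age). Gabra4 also gained on Gabra2, its neighbour on chromosome 5, from a ratio of 2.13 to 3.95 in geometric means (log2 difference 0.89, exact permutation p = 0.0286, adjusted 0.0381, n = 4 per age), and here 24m replicate 1 had the highest ratio of the 8. Without 24m replicate 1 the adjusted exact permutation p was 0.0571 for both ratios of Gabra4. For Gabra5 over Gabra2 the ages overlapped, with geometric means of 7.16 and 6.45 and a log2 difference of -0.15 (exact permutation p = 0.543, adjusted 0.543, n = 4 per age). Both genes missed the threshold in the fit over all libraries, and the aged libraries scattered from 4.83 to 9.14 in this ratio where the young ones lay between 6.72 and 7.50.

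**Figure D4:**
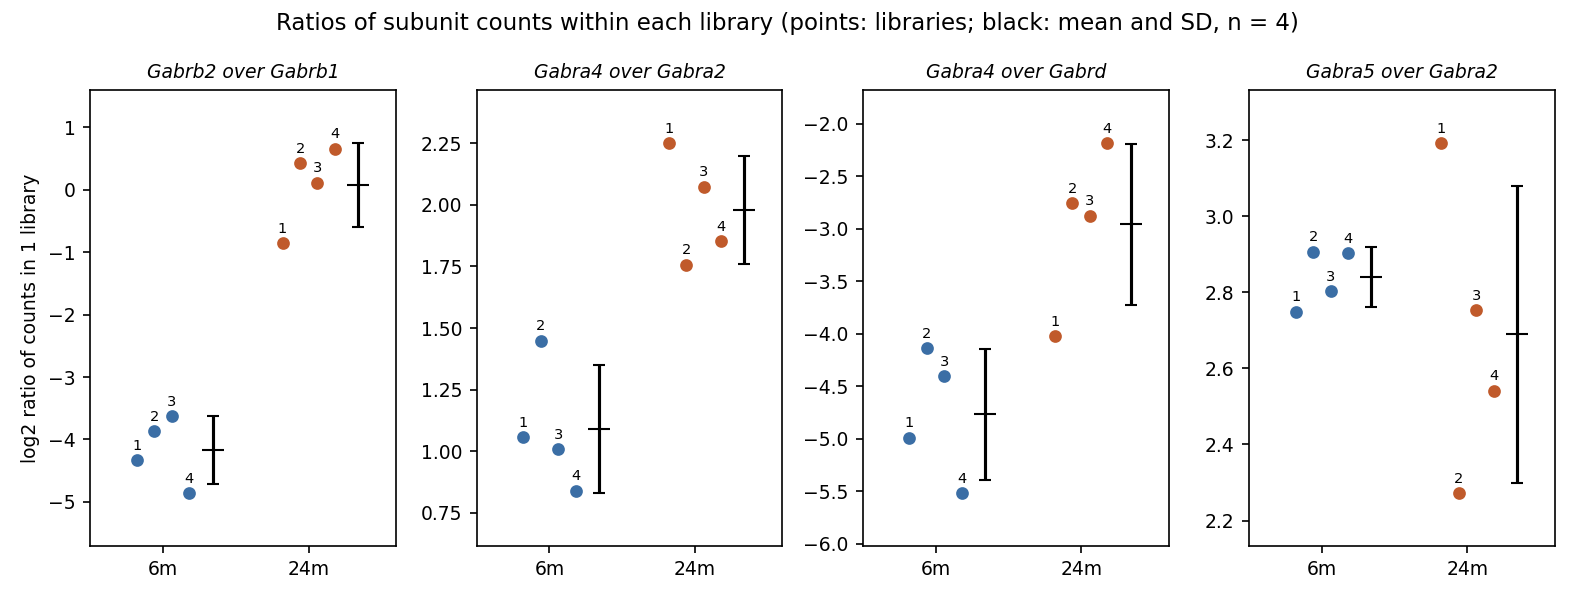
Log2 ratio of the counts of 2 subunits in each library (points with replicate numbers, mean and SD in black, n = 4 per age, each panel with its own vertical scale). The ages are apart for the first 3 ratios and overlap for Gabra5 over Gabra2, whose aged libraries are the more scattered.

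Most subunit genes lie in clusters with genes of other subunit classes, and within a cluster the age differences were unequal. The chromosome 5 cluster runs over 1412.9 kb and holds Gabrg1, Gabra2, Gabra4 and Gabrb1 in this order. Its log2 fold changes were 0.58 for Gabrg1 (edgeR adjusted p = 0.0593, not called), 0.67 for Gabra2, 1.48 for Gabra4 and -1.01 for Gabrb1. Gabrg1 was called without 24m replicate 1 (0.76, edgeR adjusted p = 0.00322) and was at 0.17 with the length trend removed (edgeR adjusted p = 0.444). The last 2 overlap at their 5′ ends by 267 bases, of which 101 are exonic in both, 1.00% of the exonic length of Gabra4 and 0.598% of that of Gabrb1. On chromosome X, Gabra3 (1.40) lies between Gabre (1.28) and Gabrq (2.48) in a cluster of 586.6 kb, and the 3 genes were called higher. Gabrq rests on few reads, with 14 to 20 counts at 6m and 65 to 234 at 24m (SE 0.43). Gabrb2 and Gabra5 lie in clusters on chromosomes 11 and 7, whose other genes are not all described here.

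**Figure D5:**
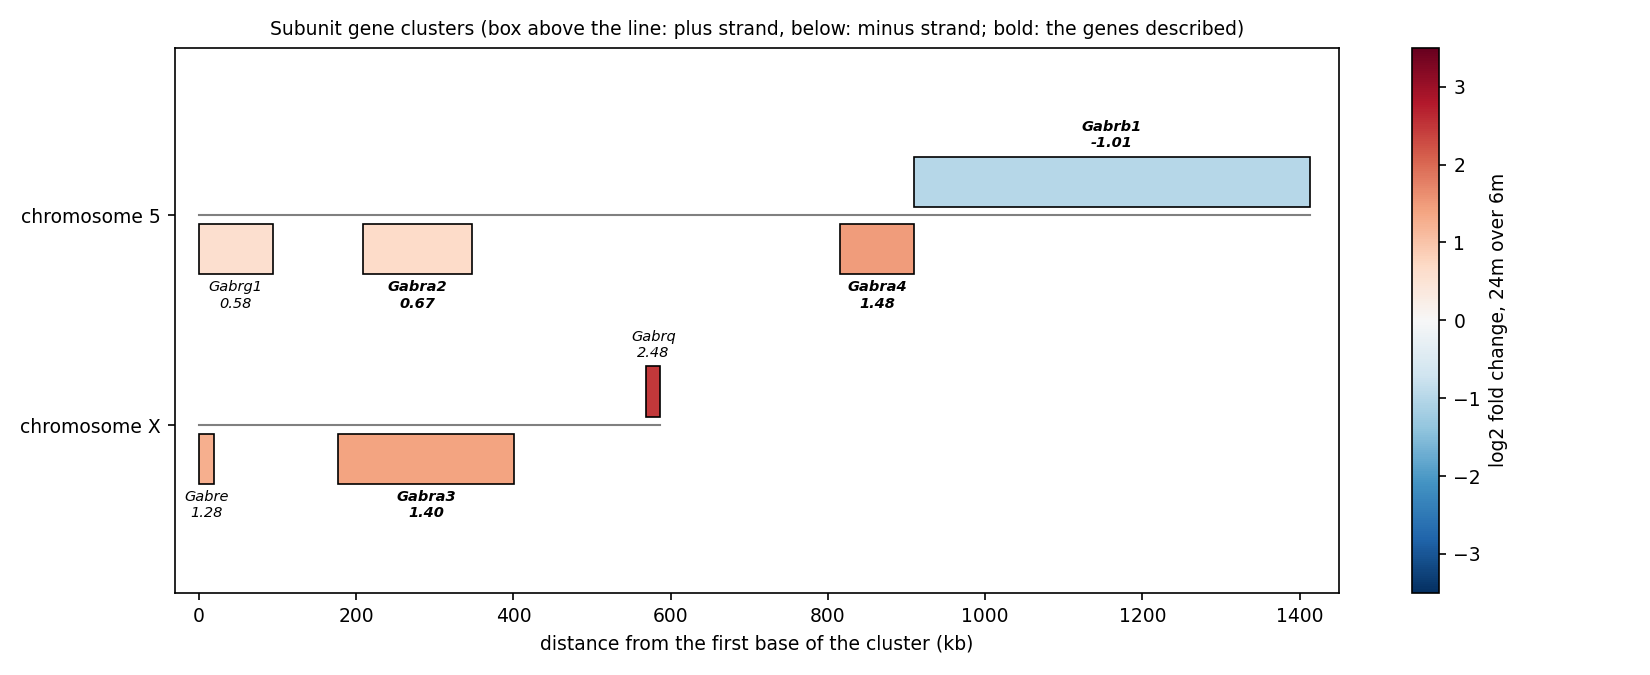
Subunit genes of the chromosome 5 and chromosome X clusters drawn to scale, as distance in kb from the first base of the cluster, coloured by log2 fold change of 24m over 6m with the value under each name. Gabra4 and Gabrb1 adjoin at their 5′ ends on chromosome 5 with values of 1.48 and -1.01, while the 3 genes of chromosome X have positive values.

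Levels of different genes were compared per length as RPKM, counts per kilobase of exonic length and per 1e+06 counts of the library, within 1 age. At 6m the order of means was Gabrd (26.3), Gabra5 (2.31), Gabra3 (1.45), Gabrb1 (0.944), Gabra4 (0.635), Gabra2 (0.325) and Gabrb2 (0.0843). Gabrd was above every other gene in each library. The ranges of Gabra5 and Gabra3, of Gabra3 and Gabrb1, and of Gabra4 and Gabra2 overlapped among the young libraries. Within a library, Gabra5 was above Gabra3 and Gabra4 above Gabra2 in 4 of 4 young animals, and Gabra3 above Gabrb1 in 3 of 4. Gabrb2 was below the lowest value of Gabra2. At 24m the order was Gabrd (25.1), Gabra3 (4.46), Gabra5 (3.69), Gabra4 (2.06), Gabrb2 (1.01), Gabra2 (0.608) and Gabrb1 (0.549). Every pair of neighbours after Gabrd overlapped in range, although within a library this order held in 3 of 4 aged animals, and in 24m replicate 1 Gabrb1 was above both Gabrb2 and Gabra2. By their means, Gabrb2 was the lowest of the 7 at 6m and Gabrb1 the lowest at 24m, and in 24m replicate 1 the lowest was Gabra2. Per kilobase of the canonical transcript the levels were higher, because that transcript is shorter than the union of exons. Gabra4 (1.52) then came before Gabrb1 (1.16) at 6m, and Gabra5 (9.82) before Gabra3 (8.40) at 24m.

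Of the other 12 subunit genes, 10 were tested, and 7 were called higher and none lower, where 25.3% and 18.3% of all tested genes were called. In these 10 genes the median log2 fold change was 0.66, against -0.0034 over all tested genes and 0.67 over the 7 genes described, and with the length trend removed the medians were 0.87 for the 10 genes and 0.32 for the 7. Among them, Gabre, the ε subunit, rose from 0.751 ± 0.0719 to 1.83 ± 0.776 CPM (SD, n = 4 each, log2 fold change 1.28 ± 0.28 SE, edgeR adjusted p = 0.00308). Without 24m replicate 1, 8 of the 10 were called higher, and with the length trend removed 5 of the 10. Gabrp had no count in any library and Gabrr3 did not pass the filter.

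Genes that position and move GABA-A receptors were called higher in 12 of 22 cases, with 2 called lower and a median log2 fold change of 0.94. The largest were Iqsec3, an exchange factor that binds the scaffold gephyrin (2.13 ± 0.22), Trak2, an adaptor of kinesin transport (1.69 ± 0.22), and Lhfpl4, which links receptors to neuroligin 2 (1.51 ± 0.26, SE throughout). Rdx, the radixin that anchors α5 receptors outside synapses, fell by 0.93 (edgeR adjusted p = 0.000148), and Gabarap, a receptor-associated protein of intracellular trafficking, fell by 0.66 on the log2 scale (edgeR adjusted p = 0.00776). Without 24m replicate 1 the counts were 14 higher and 3 lower. With the length trend removed they were 9 higher and 2 lower with a median of 0.52, the lower ones being Rdx and Insyn1 (-0.63, named after its value was seen), while Gabarap was at -0.26 and not called. Gabarap also missed the fold threshold with library totals (-0.46).

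Of the GABA-B receptor genes and their KCTD subunits, which form the metabotropic GABA receptor, 4 of 6 were called higher and 1 lower. Gabbr2, the subunit that couples to the G protein, rose from 37.1 ± 7.11 to 142 ± 57.1 CPM (SD, n = 4 each). Kctd12 (log2 fold change 1.79) and Kctd8 (0.87) were also higher and Kctd16 lower (-0.61), and Kctd16 was not called without 24m replicate 1, with library totals or with the length trend removed. Of the genes for GABA synthesis, transport and breakdown, 6 of 9 were called higher and none lower, among them Abat, the GABA transaminase (2.17), and Gad2, which makes GABA from glutamate (1.96). Chloride transporters and their kinases, which set the gradient the channel uses, were called higher in 6 of 8 cases, 4 of 8 with the length trend removed, with Slc12a2, the chloride importer NKCC1, at 2.08, and the kinases Wnk3 and Wnk1 at 2.01 and 1.86. Slc12a5, the chloride exporter KCC2, was also called higher (0.60, from 466 to 707 CPM, named after its value was seen). With the length trend removed Slc12a5 was at 0.29 and not called. The glycine receptor, the related chloride channel of brainstem and spinal cord, had 2 of 5 genes higher and 1 lower. Glrb, its β subunit, rose by 0.91 and Glra1, its adult α subunit, fell by 1.26 on the log2 scale. With the length trend removed Glrb was at 0.48 and not called, though 2 of the 5 genes were again called higher. The genes called higher were 3 of 5 without 24m replicate 1 and 4 of 5 with library totals. For each of these groups the count with all 8 libraries and TMM factors stands beside the 25.3% of all tested genes called higher and the 18.3% called lower. The other fits have other backgrounds among the 16730 tested genes. With the length trend removed 3568 were called higher and 2885 lower. Without 24m replicate 1 these were 4644 and 3661, and with library totals 5449 and 1746.

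Markers of cell types and regions were followed in the same libraries, and their part in the subunit results was not tested. Of 8 general neuron markers, 1 was called higher (Syt1, 1.55) and 1 lower (Tubb3, -0.63), with a summed level of 5390 to 5900 CPM at 6m and 4940 to 5960 CPM at 24m. Tubb3 was not called with the length trend removed or with library totals (-0.42 in both), and without 24m replicate 1 the neuron markers called lower were 2. Of 8 markers of GABAergic neurons, 3 were called higher (Gad2, 1.96, Gad1, 1.16, and Lhx6, 0.93) and 2 lower (Sst, -1.01, and Pvalb, -0.89), with summed levels of 1420 to 1750 and 1150 to 1410 CPM. With library totals Pvalb missed the threshold (-0.69, edgeR adjusted p = 0.0502). Excitatory neuron markers were called higher in 3 of 5 cases (among them Slc17a6, 1.30, and Tbr1, 1.29), with sums of 1310 to 1620 and 1540 to 1960 CPM. The young and aged sums overlapped for neurons in general and for excitatory neurons, and for GABAergic neurons the aged sums lay under the lowest young one. Pvalb and Sst, the 2 called lower, had the highest means of the 8 GABAergic markers at both ages and weigh most in that sum. Pvalb went from 654 to 352 CPM and Sst from 568 to 281 CPM. Gad1 went from 116 to 260 CPM and Gad2 from 10.8 to 41.8 CPM. No marker was at 0 in all libraries.

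Of 8 astrocyte markers 5 were called higher, with Aqp4 (1.92) and Slc1a3 (1.89) leading, and S100b was lower (-1.29). Their summed level was 2890 to 3830 CPM at 6m and 2850 to 3840 CPM at 24m. For oligodendrocytes 1 of 7 markers was called higher, for microglia 2 of 7 (Cx3cr1, 1.72, and P2ry12, 0.75), and for endothelial cells 1 of 6 was higher (Flt1, 1.24) and 2 lower (Ly6c1, -1.26, and Cldn5, -1.06). Endothelial sums were 73.3 to 108 CPM at 6m and 43.8 to 65.8 CPM at 24m. Cldn5 was at -0.42 and not called with the length trend removed, and without 24m replicate 1 the endothelial markers called higher were 2. Several subunits mark regions, so regional markers stand beside them as well: of the cerebellum, where δ is abundant, 3 of 7 were called higher and none lower (summed level 344 to 595 CPM at 6m and 417 to 593 CPM at 24m). Without 24m replicate 1, the library with the highest Gabrd, 1 cerebellum marker was called lower, Pcp2 of Purkinje cells (-0.89, edgeR adjusted p = 0.00444, against -0.53 and 0.166 with it). Pcp2 was named after its value was seen. In the same fit 3 of the 7 cerebellum markers were still called higher, Cbln3 (1.81), Neurod1 (1.10) and Zic1 (1.06). Of the hippocampus, rich in α5, 3 of 5 were higher (119 to 145 and 177 to 229 CPM), of the thalamus, rich in α4, 2 of 5 (113 to 119 and 135 to 149 CPM), of the striatum 2 of 6 (712 to 830 and 579 to 814 CPM), and of the cortex 4 of 6 (153 to 184 and 202 to 311 CPM), with none lower in these 4 regions. Without 24m replicate 1 the hippocampus markers called higher were 4. With the length trend removed they were 2, the cortex markers called higher were 3, and 1 thalamus marker was called lower.

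The genes whose log2 CPM over the 8 libraries, each centred on its mean, were nearest to a subunit were found among 13537 genes at a mean level of 1 CPM or more, by the root mean square difference in log2 units. For Gabrb2 they were Amot (0.146), Kcnd3 (0.170) and Psd3 (0.190). For Gabrb1 they were Taf15 (0.058), Tcf4 (0.075) and Kdm5a (0.090), and no other subunit came near, the nearest being Gabrr2 at 0.396. Gabra3 was nearest to Impact (0.071), Ammecr1l (0.075) and Crk (0.077), and Gabra4 to Gnai3 (0.082), Slc25a16 (0.085) and Sgpp1 (0.087). Gabra3 and Gabra4 were also each other's nearest subunit (0.131), on different chromosomes. Gabra2 was nearest to Eml6 (0.082), Exoc5 (0.088) and Ppp4r2 (0.097), Gabra5 to Lrrn3 (0.056), Rnf115 (0.063) and Hnrnph2 (0.075), and Gabrd to Pold2 (0.033), Gcat (0.040) and Spsb3 (0.046). These values describe 8 libraries that share 2 ages, so nearness reflects the age difference as well as the scatter within an age.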

How the data were processed

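Reads of directional poly(A) libraries were trimmed by the authors with Trim Galore 0.4.11, aligned to GRCm39 with HISAT2 2.1.0 and counted over Ensembl genes with featureCounts. What was deposited are raw counts, whole numbers for each gene in each library, neither normalized nor pooled. Strand and multimapping settings are not given in the sources used here. Of the 22430 genes listed, the 16730 that exceeded 5 counts in 4 or more of the 8 libraries were tested with edgeR 4.0.16 (R 4.3.3), using TMM factors, the quasi-likelihood test with age as the only term, and Benjamini-Hochberg adjustment over all of them. Calls needed an adjusted p no larger than 0.05 together with a log2 fold change no smaller than 0.58 in size. Standard errors were derived from the F statistic. CPM are counts per 1e+06 of the TMM-scaled library, and log2 CPM used a prior count of 2. Positions and lengths come from GENCODE on GRCm39, in which 22281 of the genes listed were found.

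Which genes to describe, and all lists, were chosen with earlier results of these data known, although the matching itself used no measured value. Genes named from a list are, in each direction, up to 3 called genes with the largest log2 fold change and a mean of 1 CPM or more, and subunit genes of the clusters were added for their position. Insyn1, Pcp2 and Slc12a5 were named outside this rule, after their values were seen. Lists were described by counts and medians. Some genes that this rule picks are not reported here. The libraries come from separate animals. The 12 pairs of libraries of 1 age differed by more than sampling noise (chi-square per degree of freedom of 8.17 or more), so each was counted. The fit was tested on simulated data. As alternatives, the analysis was repeated with DESeq2 1.42.0, limma-voom (limma 3.58.1), other scaling factors, other filters, each library left out, a replicate block, and length or GC trends removed.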

Additional observations from a re-analysis of the deposited data

How the results depend on the processing

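Gabra3, Gabra4, Gabrb1 and Gabrb2 kept their direction and their call in all 18 alternatives, and Gabrd was called in none. Gabra2 was also called by DESeq2 (log2 fold change 0.67, DESeq2 adjusted p = 0.0425), with library totals alone (0.90, edgeR adjusted p = 0.0382) and without 24m replicate 1 (0.90), its values running from 0.49 to 0.90 as each library was left out. Gabra5 was called with library totals alone (0.68, edgeR adjusted p = 0.0257). The number of genes called among the 7 was 4, 5 or 6. It was 5 by DESeq2, where 4191 of all 16730 tested genes were called higher and 3096 lower. It was also 5 without 24m replicate 1, where 4644 were called higher and 3661 lower, and 6 with library totals. With library totals the median log2 fold change of all tested genes moved from -0.0034 to 0.2142 and calls from 4237 higher and 3058 lower to 5449 and 1746, while DESeq2 on quantile-normalized counts gave a median of -0.1004 with 3573 higher and 3891 lower. Leaving out a library, the log2 differences ran from 4.03 to 4.57 for Gabrb2 over Gabrb1, from 0.80 to 1.01 for Gabra4 over Gabra2 and from 1.55 to 2.16 for Gabra4 over Gabrd. For each of these 3 ratios the adjusted exact permutation p was above 0.05 with any single 6m library left out or without 24m replicate 1 (0.0571 or 0.0762, the adjustment being over the 4 ratios together), and 0.0381 without 24m replicate 2, 3 or 4. For Gabrb2 over Gabrb1 the unadjusted p was 0.0286 in each case. The replicate numbers did not pair the libraries (correlation of deviations -0.348 to 0.271). With the replicate block, log2 fold changes were 0.60 for Gabra2, 1.42 for Gabra3, 1.48 for Gabra4, 0.45 for Gabra5, -1.02 for Gabrb1, 3.21 for Gabrb2 and -0.31 for Gabrd, and no call among the 7 changed. The ratios, at 4.26, 0.89 and 1.80, had an adjusted p of 0.167 in a sign-flip test over 4 pairs under the block, whose smallest unadjusted p is 0.125. Depth limits Gabrb2 most, with 41 to 80 counts at 6m.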
